A study of Mus musculus with 28 samples.

Results

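MYC works through a small network of transcription factors that share the partner MAX, and 8 genes of that network were followed here: Myc, Max, Mxd1, Mxi1, Mxd3, Mxd4, Mnt and Mga. They were taken by name from 18193 genes with a probe set of their own on a mouse expression array, and the brightest probe set of each gene (highest mean over the 28 arrays) stood for it. All 8 were on the array and lay over the detection level of 4.27 log2 units in 28 of 28 arrays. CD4 and CD8 T cells were purified from mouse spleen by negative selection, activated for 2 days with anti-CD3 on the plate and anti-CD28 in solution, and then cultured for 1 more day. In that day they received romidepsin at 2, 10 or 30 nM, vorinostat at 0.5, 2 or 10 µM, or no drug. Both drugs inhibit histone deacetylases (HDACs), and the study asked how they alter gene expression in T cells. This gave 14 groups, 7 for each cell type, with 2 arrays in each. The labels name no vehicle for the undrugged control, no strain or age of the mice, and do not say whether replicates 1 and 2 came from separate animals, so p-values measure the spread between these samples only.

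MYC pairs with MAX to bind the E-box CACGTG and raise the transcription of genes for growth, ribosomes and metabolism, and it is induced early when T cells are activated. The MXD proteins (from Mxd1, Mxi1, Mxd3 and Mxd4) and MNT also pair with MAX on E-boxes, but they bring in the SIN3 corepressor, which carries HDAC1 and HDAC2, and oppose MYC. MGA pairs with MAX as well, carries a second DNA-binding domain of the T-box type, and belongs to a Polycomb repressor complex (PRC1.6) that keeps germline genes off.

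The values are log2 units after GCRMA, so a difference of 1 is a doubling, and levels of different probe sets are not compared. Replicate 1 and replicate 2 arrays stood apart: the lowest value was 2.2684 in the one set and 2.2545 in the other, and Myc, Max, Mxd4 and Mnt lay lower in replicate 1 in 14 of 14 groups while Mga lay higher in 14 of 14. A difference between groups was therefore tested with limma without a block and also with the replicate number as a block, and results that pass only with the block are named as such. An adjusted p under 0.05 over 9874 genes counts as passing. The smallest p an exact permutation test of 2 arrays against 2 could give is 0.333, so none was run. The labelled cell types were checked: Cd8a was at 9.34 or more in CD8 arrays and at most 6.07 in CD4 arrays. It was still over the detection level in 12 of 14 CD4 arrays. Cd8b1 was at 9.93 or more in CD8 arrays and at 5.32 to 8.28 in CD4 arrays, over the detection level in 14 of 14 of them. Cd4 was at most 2.34 in CD8 arrays and over the detection level in 11 of 14 CD4 arrays, since it fell at least 16.2-fold in CD4 cells at the top dose of each drug. The RNA is from whole cultures, in which fewer cells of a type and less RNA per cell cannot be told apart.

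The members lie on 8 chromosomes (RefSeq, GRCm38.p6): Mga at chr2:119872503-119970129, Mxd4 at chr5:34176580-34187710, Mxd1 at chr6:86647044-86669234, Mnt at chr11:74830806-74845725, Max at chr12:76937269-76962323, Mxd3 at chr13:55325170-55329900, Myc at chr15:61985341-61990361 and Mxi1 at chr19:53310128-53373293. Their promoters are shown first, since the E-box is the site that the network itself binds. RefSeq windows from 250 bases before to 50 bases after a start matched 7 of the 8 members, and Myc is named only. CACGTG occurred in the windows of Max, Mnt and Mxd4, 3 of these 7 members, and in 7.15% of 32851 promoters of the same length. In Mnt it began 123 bases and in Mxd4 219 bases before the start. Mnt and Mxd4 lay lower in several drugged groups with the replicate block only. Mxi1 did so in CD4 cells with romidepsin at 10 and 30 nM, where its second probe set gave -0.18 and 0.09. A link between the motif and these changes was not tested. Both strands were searched, and the 3 windows of Mxi1 and the window of Mga held no CACGTG. The 250 bases before their starts read as follows, with the E-box in capitals, for Mnt on the plus strand (chr11:74830674-74830923) and Mxd4 on the minus strand (chr5:34187711-34187960).
Mnt: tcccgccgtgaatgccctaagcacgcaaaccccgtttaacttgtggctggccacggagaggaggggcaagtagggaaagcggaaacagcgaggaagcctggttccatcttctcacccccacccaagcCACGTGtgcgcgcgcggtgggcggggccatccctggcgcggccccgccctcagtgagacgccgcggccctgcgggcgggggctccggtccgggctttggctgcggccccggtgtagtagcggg
Mxd4: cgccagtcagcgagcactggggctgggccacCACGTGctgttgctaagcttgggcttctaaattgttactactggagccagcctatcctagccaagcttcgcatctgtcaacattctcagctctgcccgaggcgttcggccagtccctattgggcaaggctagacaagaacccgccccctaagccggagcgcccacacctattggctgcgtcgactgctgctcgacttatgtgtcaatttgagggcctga
In Max the E-box spans the start itself, beginning 3 bases before it, as the 30 bases around the start on the minus strand show.
Max: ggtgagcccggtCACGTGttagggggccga
Mxd1, the member with the largest rises, had no CACGTG in its window. The GC box GGGCGG, bound by factors of the SP family, was searched in addition to the planned E-box. The Mxd1 window held 6 matches to it, and a pair of them overlaps. Windows of all promoters held 0.765 such matches on average, and 35.7% held any, on either strand. Its 250 bases on the minus strand (chr6:86669160-86669409) are given with the GC boxes in capitals.
Mxd1: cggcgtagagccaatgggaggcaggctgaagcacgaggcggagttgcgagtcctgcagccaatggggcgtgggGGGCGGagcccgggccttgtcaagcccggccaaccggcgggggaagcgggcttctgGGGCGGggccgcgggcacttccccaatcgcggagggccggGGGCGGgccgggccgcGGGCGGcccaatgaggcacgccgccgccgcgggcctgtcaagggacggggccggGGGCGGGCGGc
Mxd3, whose level moved least of the 8 on the brightest probe sets, held 8 GC boxes in its window. The 3 windows of Mxi1 held 1, 4 and 4. Mnt, which lay lower with the block, held 4, Mxd4 and Mga held 1 each, and Max held 0. A match is a run of letters and was not measured as a bound site.

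At the highest doses the members did not move in 1 direction, and antagonists of MYC were among both the rises and the falls. Mxd1, an antagonist, rose in both cell types, in CD4 cells on 1 of its probe sets alone. Myc lay lower in both replicates of all 4 top-dose groups, by 1.96-fold to 5.83-fold on the means, but passed only with the block. Mnt lay lower in all 4 of these groups and Mxd4 passed in 3 of them, not in CD8 cells with vorinostat at 10 µM, and these calls needed the block. The second probe set of Mxd4 did not pass in these 3 groups. Mxi1 rose in CD8 cells with vorinostat at 10 µM and, with the block, was lower in CD4 cells with romidepsin at 30 nM. On the brightest probe sets Max, Mxd3 and Mga passed in none of the 12 drug comparisons with either of these fits. Each comparison of a drug with control within a cell type uses the same 2 control arrays.

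Without the block, limma called 1 of 8 members, Mxd1, in CD4 cells with romidepsin at 10 nM (8.64% of all genes tested were called), with romidepsin at 30 nM (21.2%) and with vorinostat at 10 µM (18%). In CD8 cells it called Mxd1 with romidepsin at 30 nM (10.8%) and vorinostat at 2 µM (3.3%), and Mxd1 and Mxi1 with vorinostat at 10 µM (20.6%). With the block it called 5 members in CD4 cells with romidepsin at 10 nM (48.2%), 5 at 30 nM (63.7%), 1 with vorinostat at 2 µM (28.3%) and 4 at 10 µM (61.2%). In CD8 cells it called 2 with romidepsin at 10 nM (17.2%), 5 at 30 nM (52.4%), 1 with vorinostat at 0.5 µM (1.13%), 2 at 2 µM (36.8%) and 4 at 10 µM (64%). The share of members called with the block at the top doses is near that of all genes. At the remaining low doses limma called 0 members with either fit, in CD4 cells with romidepsin at 2 nM (0.0304% of genes without and 0.922% with the block) and vorinostat at 0.5 µM (0.0101% and 0.253%), and in CD8 cells with romidepsin at 2 nM (0% and 0%). At an unadjusted p under 0.05 these 3 comparisons held 0 members without the block, and with it 1, 0 and 0. Limma without the block also called 0 members for vorinostat at 2 µM in CD4 cells (1.42% of genes) and in CD8 cells with romidepsin at 10 nM (1.12%) and vorinostat at 0.5 µM (0%), with 0, 1 and 0 members at an unadjusted p under 0.05.

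**Figure D1:**
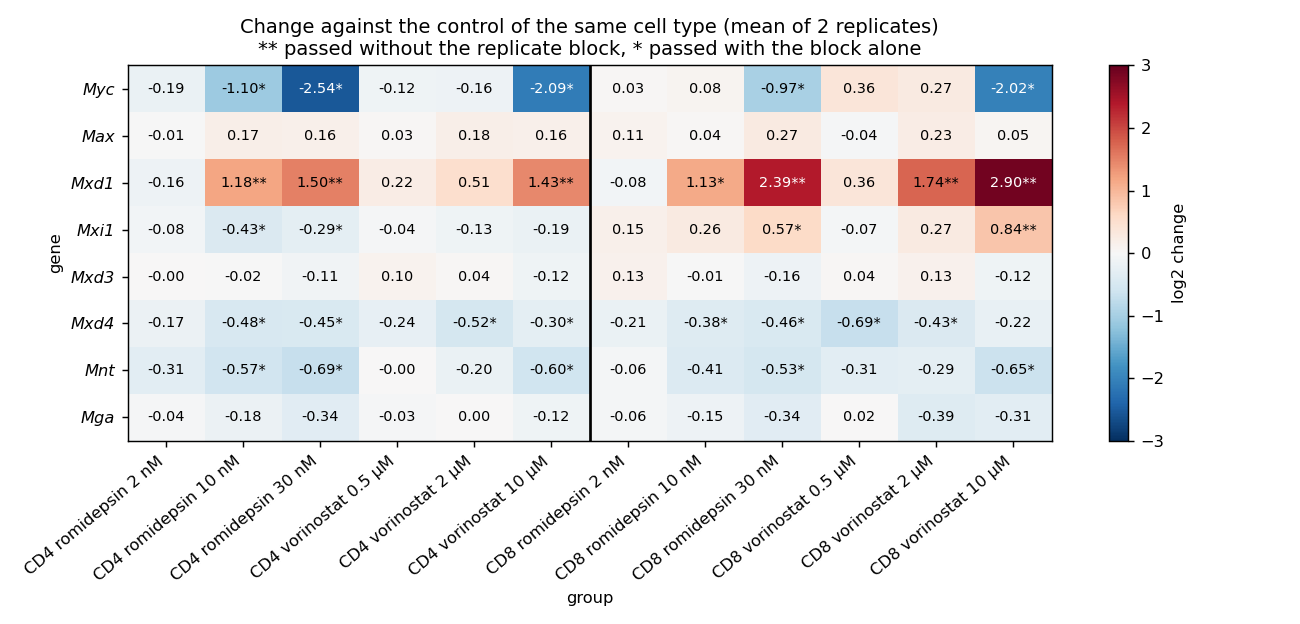
Log2 change of the 8 genes (rows) against the control of the same cell type in the 12 drug groups (columns), as the mean of 2 replicates, with colour from blue (lower) to red (higher). A double asterisk marks changes that passed in limma without the replicate block and a single asterisk those that passed with the block alone. The Mxd1 row is red from the middle doses on, up to 2.90, and the Myc row is blue at the top doses, down to -2.54.

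Myc, the activator of the network, was at 10.21 and 12.03 log2 units in replicates 1 and 2 of the CD4 control. With romidepsin it was at 9.91 and 11.93 at 2 nM, 8.85 and 11.18 at 10 nM, and 7.36 and 9.79 at 30 nM. With vorinostat it was at 10.18 and 11.81 at 0.5 µM, 10.26 and 11.66 at 2 µM, and 7.96 and 10.10 at 10 µM. Within each replicate the 10 and 30 nM romidepsin arrays and the 10 µM vorinostat array lay below the control, and the replicates of a group lay further apart than most groups did. At 30 nM romidepsin the difference from control was -2.54 ± 1.16 (SE; -2.85 and -2.24 in replicates 1 and 2), with a limma adjusted p of 0.142 without and 6.43e-06 with the block. At 10 µM vorinostat it was -2.09 (adjusted p = 0.257 without and 4.28e-05 with the block), and at 10 nM romidepsin -1.10 (0.749 and 0.00868).

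In CD8 cells Myc was at 10.42 and 11.56 in the control. With romidepsin it was at 10.46 and 11.58 at 2 nM, 10.46 and 11.68 at 10 nM, and 8.99 and 11.05 at 30 nM. With vorinostat it was at 10.98 and 11.72 at 0.5 µM, 10.82 and 11.70 at 2 µM, and 7.88 and 10.06 at 10 µM. Only the top doses lay below the control within both replicates, and the middle doses lay at or above it. The difference from control was -2.02 with vorinostat at 10 µM (limma adjusted p = 0.261 without and 4.87e-05 with the block). With romidepsin at 30 nM it was -0.97 (-1.43 and -0.51 in replicates 1 and 2; 0.767 without and 0.016 with the block). The undrugged CD8 and CD4 cells differed in Myc by -0.13, with a 95% interval from -0.79 to 0.53 with the block.

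**Figure D2:**
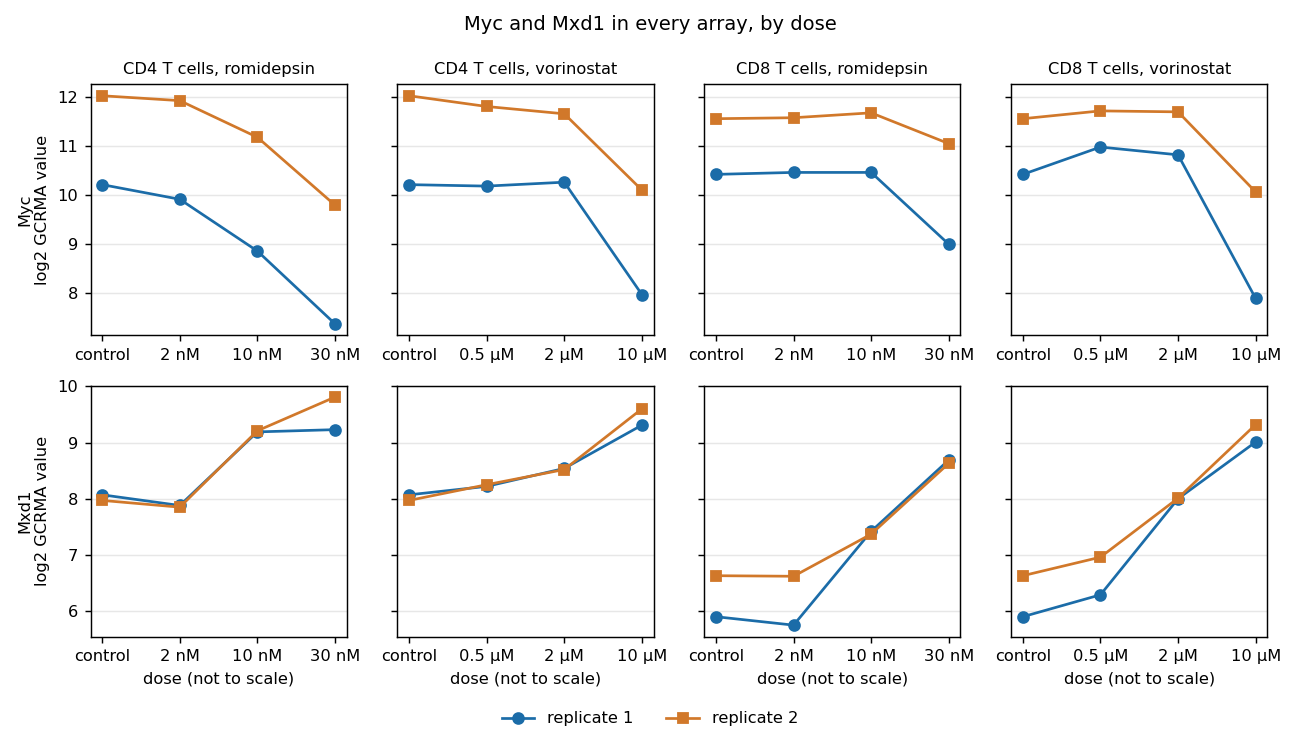
Log2 GCRMA value (y axis) of Myc (upper row) and Mxd1 (lower row) in every array by dose (x axis, not to scale), with CD4 cells in the left 2 columns and CD8 cells in the right 2. Blue circles are replicate 1 and orange squares replicate 2, and the control is repeated in both drug panels. The Myc lines run apart by replicate and drop at the top doses, and the Mxd1 lines run close together and climb.

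Ordered by group mean, Myc was highest in CD8 cells with vorinostat at 0.5 µM (11.35) and lowest in CD4 cells with romidepsin at 30 nM (8.57). None of the 13 neighbouring pairs in that order differed beyond the 95% interval without the block. With it 2 did: CD4 romidepsin 2 nM (10.92) from CD8 romidepsin 30 nM (10.02), and CD4 romidepsin 10 nM (10.01) from CD4 vorinostat 10 µM (9.03). The steepest dose interval for vorinostat lay between 2 and 10 µM in both cell types, and in CD4 cells Myc was already lower at 10 nM romidepsin, with the block.

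Other measures moved with Myc. The summed signal of 7 T cell markers, all over the detection level in every array, was 14.75 and 15.21 log2 units in replicates 1 and 2 of the CD4 control and 12.57 and 13.84 with romidepsin at 30 nM. Of these 7 markers 5 fell there without the block and 7 with it (7.91% and 28.3% of all genes), with a median change of -1.49. In CD8 cells with vorinostat at 10 µM 4 fell without and 7 with the block (8.5% and 32.4%), with a median of -1.72, where the sum was 12.66 and 13.84 against 14.63 and 15.23. The 7 B cell markers measured summed to 8.23 and 11.08 in the CD4 control and 5.59 and 6.96 with romidepsin at 30 nM, and to 9.35 and 10.78 in the CD8 control and 5.53 and 7.18 with vorinostat at 10 µM. Up to 6 of these 7 were over the detection level in an array, among them Ighm, the antibody heavy chain gene, at means of 8.52 and 9.62 in the CD4 and CD8 controls, and Cd79b at 8.22 and 7.79. Both passed as lower with the block alone at the top doses in both cell types. Pax5 was under the detection level in all arrays, as were 7 of 8 myeloid markers. An RNA quality measure, the 3' signal of beta-actin less its 5' signal, went from 0.94 and 0.78 in the CD4 control to 1.55 and 0.97 with romidepsin at 30 nM and 1.62 and 1.09 with vorinostat at 10 µM. In CD8 cells it went from 0.86 and 0.79 to 1.23 and 0.90 with romidepsin at 30 nM and to 1.43 and 1.16 with vorinostat at 10 µM. The same difference for Gapdh was 0.20 and 0.16 in the CD4 control. With romidepsin at 30 nM it was 0.24 and 0.09 there, and with vorinostat at 10 µM 0.34 and 0.08. In CD8 cells it was 0.20 and 0.08 in the control, 0.18 and 0.07 with romidepsin and 0.26 and 0.13 with vorinostat at these doses. In replicate 2 of the CD4 cells it thus fell where the actin difference rose. With the actin difference alone as a covariate beside the block, the Myc change was -1.71 in CD4 cells with romidepsin at 30 nM (limma adjusted p = 0.00246). It was -1.05 with vorinostat at 10 µM in CD4 cells (adjusted p = 0.0832) and -1.03 in CD8 cells (adjusted p = 0.0651). It was -0.63 with romidepsin at 10 nM in CD4 cells (limma adjusted p = 0.108) and -0.47 at 30 nM in CD8 cells (limma adjusted p = 0.227), so 4 of the 5 calls with the block were lost. The actin difference was itself higher than in control in these groups. Here and below, this fit therefore cannot tell RNA quality and the drug apart. The part of the cell markers in these changes was not tested.

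Max, the shared partner of these proteins, ranged only from 7.01 to 7.59 over the 14 group means. Its changes against control ran from -0.04 to 0.27, and undrugged CD8 cells differed from CD4 cells by 0.29 (limma adjusted p = 1 without and 0.0568 with the block). The largest was in CD8 cells with romidepsin at 30 nM, where the arrays stood at 7.03 and 8.15 against 6.92 and 7.72 in the control (limma adjusted p = 0.935 without and 0.0599 with the block). The 95% interval of a difference reached 0.25 log2 units to each side with the block and 1.31 without. With the actin difference as a covariate beside the block, Max was higher in CD4 cells with romidepsin at 10 and 30 nM and vorinostat at 10 µM (0.33, 0.43 and 0.49, limma adjusted p = 0.0367, 0.0304 and 0.0425). In CD8 cells it was then higher with romidepsin at 30 nM (0.43, limma adjusted p = 0.00807) and vorinostat at 2 µM (0.39, limma adjusted p = 0.0174). The actin difference was higher than in control in these groups too, so its part and that of the drug cannot be told apart.

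Mxd1, an antagonist that rises as cells leave the cycle and differentiate, was the member with the widest span of group means, 3.34 log2 units. In CD4 cells it was at 8.07 and 7.97 in the control, 7.88 and 7.85 with romidepsin at 2 nM, 9.19 and 9.21 at 10 nM, and 9.23 and 9.81 at 30 nM. With vorinostat it was at 8.22 and 8.25 at 0.5 µM, 8.54 and 8.52 at 2 µM, and 9.31 and 9.60 at 10 µM. The replicates of a group lay close together, and the 10 and 30 nM romidepsin arrays and the 10 µM vorinostat arrays lay above both controls. The rise was 1.18 ± 0.29 at 10 nM (SE; limma adjusted p = 0.0188), 1.5 at 30 nM (adjusted p = 0.00164) and 1.43 with vorinostat at 10 µM (adjusted p = 0.00273).

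In CD8 cells Mxd1 started lower, at 5.90 and 6.63 in the control, and was at 5.75 and 6.62 with romidepsin at 2 nM, 7.42 and 7.37 at 10 nM, and 8.69 and 8.63 at 30 nM. With vorinostat it was at 6.29 and 6.96 at 0.5 µM, 8.0 and 8.01 at 2 µM, and 9.01 and 9.32 at 10 µM. The arrays of the middle and top doses did not overlap with the controls. The rise was 7.46-fold with vorinostat at 10 µM (log2 2.90 ± 0.29, SE; limma adjusted p = 8.34e-06), 3.35-fold at 2 µM (adjusted p = 0.00318) and 5.25-fold with romidepsin at 30 nM (adjusted p = 7.59e-05). At 10 nM romidepsin the change was 1.13, with an adjusted p of 0.1 without and 0.00376 with the block. With the actin difference as a covariate beside the block, the changes at the top doses were 1.55 and 1.5 in CD4 cells and 2.43 and 2.96 in CD8 cells for romidepsin and vorinostat.

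A second probe set of Mxd1, also over the detection level in 28 of 28 arrays, agreed in CD8 cells and not in CD4 cells. In the CD8 control it was at 5.40 and 5.55, and at 7.38 and 8.46 with vorinostat at 10 µM, a change of 2.45, and it changed by 1.64 with romidepsin at 30 nM. In the CD4 control it was at 7.52 and 7.38, and at 7.32 and 8.27 with romidepsin at 30 nM and 7.33 and 8.43 with vorinostat at 10 µM. There replicate 1 lay below and replicate 2 above its control, and the changes of 0.35 and 0.43 did not pass with either fit. At 10 nM romidepsin in CD4 cells its change was -0.14, against 1.18 for the brightest probe set. The rise of Mxd1 in CD4 cells thus rests on 1 probe set. The remaining probe set was under the detection level in all arrays.

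The undrugged cell types differed in 2 of 8 members with either fit (6.22% of all genes were called without the block and 37.5% with it). Mxd1 was 3.38-fold lower in CD8 than in CD4 control cells (log2 -1.76; -2.17 and -1.35 in replicates 1 and 2; limma adjusted p = 0.00108), and its second probe set gave -1.98. Mxi1 was 2.44-fold lower (log2 -1.29; adjusted p = 0.00891), and its second probe set gave -0.70, which did not pass with either fit. In the order of groups, the 7 highest Mxd1 means were mixed between cell types, from 9.52 in CD4 cells with romidepsin at 30 nM down. The 3 lowest, 6.63, 6.26 and 6.18, were CD8 cells at the low doses and without drug. Of the 13 neighbouring pairs 1 differed beyond the 95% interval without the block, CD8 romidepsin 10 nM (7.39) from CD8 vorinostat 0.5 µM (6.63). With the block CD8 vorinostat 10 µM (9.16) also differed from CD8 romidepsin 30 nM (8.66), and CD4 romidepsin 2 nM (7.86) from CD8 romidepsin 10 nM.

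Mxi1, an antagonist that recruits SIN3 as MXD1 does, lay closer together in the cell types at the top doses than in the controls. Its means in CD4 and CD8 cells were 11.20 and 9.91 without drug, 10.91 and 10.48 with romidepsin at 30 nM, and 11.01 and 10.75 with vorinostat at 10 µM. All 7 CD4 group means, from 10.77 to 11.20, lay above the 7 CD8 means, from 9.85 to 10.75. The lowest CD4 and the highest CD8 mean stood only 0.01 apart, and in replicate 2 their order turned, 10.56 against 10.60. In CD4 cells Mxi1 was at 11.47 and 10.93 in the control, 10.97 and 10.56 with romidepsin at 10 nM, 11.13 and 10.69 at 30 nM, and 11.30 and 10.71 with vorinostat at 10 µM. In CD8 cells it was at 9.97 and 9.86 in the control, 10.33 and 10.02 with romidepsin at 10 nM, 10.67 and 10.29 at 30 nM, and 10.91 and 10.60 with vorinostat at 10 µM. Each of these drugged CD4 arrays lay below the control of its own replicate, and each of these CD8 arrays lay above it. The rise in CD8 cells was 0.84 ± 0.28 with vorinostat at 10 µM (SE; limma adjusted p = 0.043). With romidepsin at 30 nM the change was 0.57 (0.246 without and 0.00112 with the block). In CD4 cells the changes were -0.43 with romidepsin at 10 nM (0.461 and 0.00796), -0.29 at 30 nM (0.557 and 0.0435) and -0.19 with vorinostat at 10 µM (0.762 and 0.18). The second probe set gave 0.73 in CD8 cells with vorinostat at 10 µM, and -0.18 and 0.09 in CD4 cells with romidepsin at 10 and 30 nM. With the actin covariate beside the block the CD8 change at 10 µM was 0.69 (limma adjusted p = 0.0131), and the CD4 change at 30 nM no longer passed (-0.42, adjusted p = 0.0707).

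**Figure D3:**
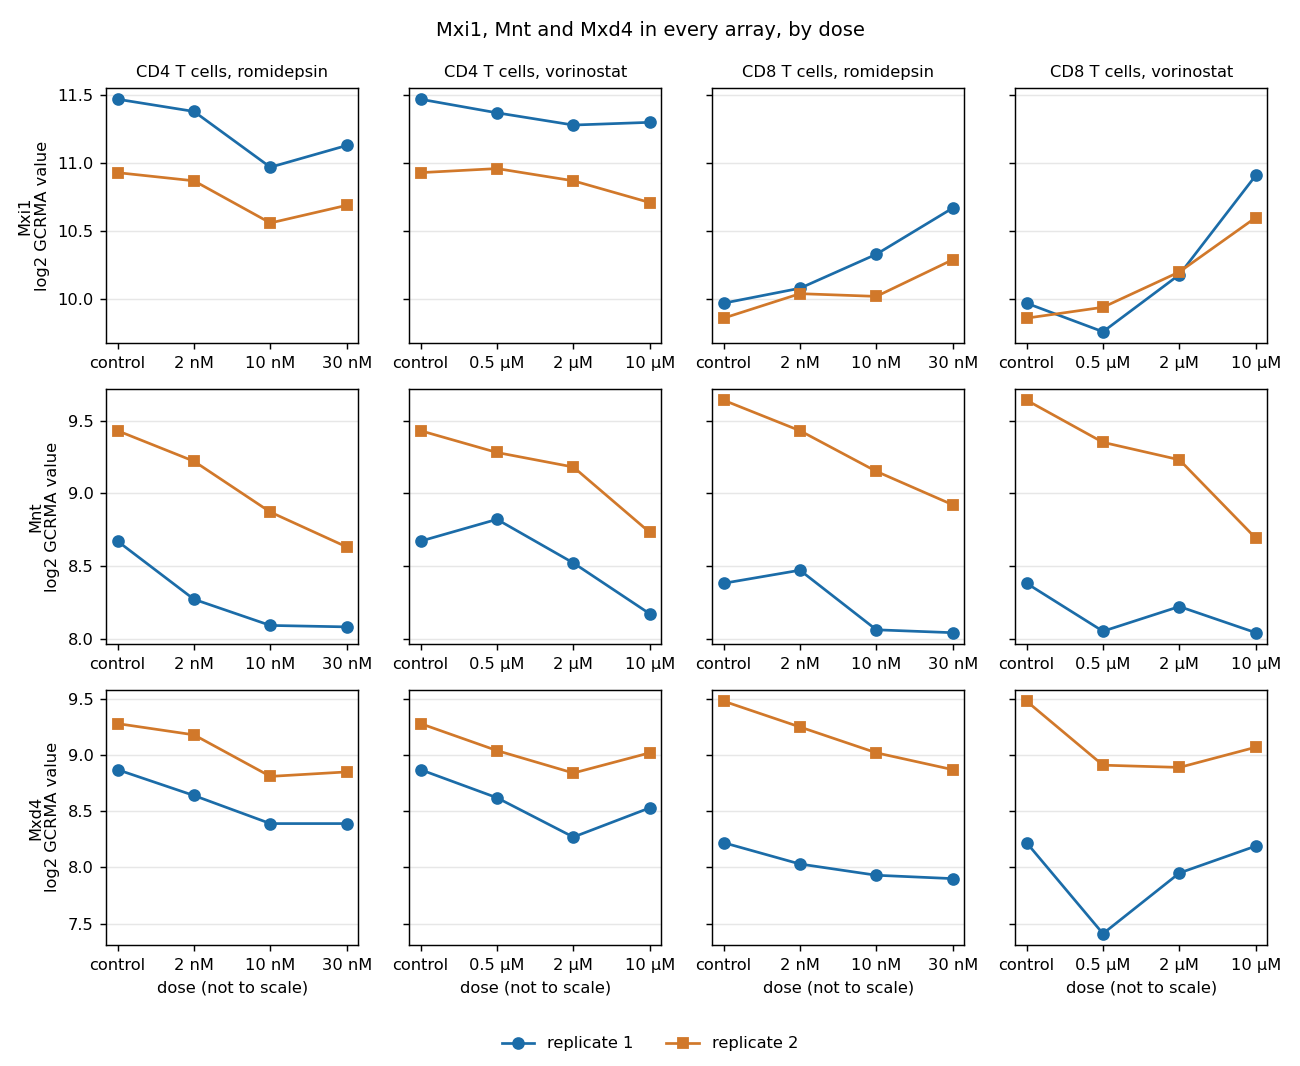
Log2 GCRMA value (y axis) of Mxi1, Mnt and Mxd4 (rows) in every array by dose (x axis, not to scale), with CD4 cells in the left 2 columns and CD8 cells in the right 2. Blue circles are replicate 1 and orange squares replicate 2. Mxi1 climbs in CD8 cells and drifts down in CD4 cells, and Mnt and Mxd4 sit lower in replicate 1 in every group and lie below their control at most doses.

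The difference between the cell types in response was tested at each dose. Without the block 0 of 8 members passed at any of the 6 doses, where limma called 0%, 0.0709% and 1% of all genes for romidepsin at 2, 10 and 30 nM and 0%, 0.0101% and 0.577% for vorinostat at 0.5, 2 and 10 µM. In the same order 0, 0, 2, 0, 1 and 2 members had an unadjusted p under 0.05. With the block Mxi1 passed at romidepsin 10 nM, where 8.38% of all genes passed, Myc and Mxi1 at 30 nM (17.6%), and Mxd1 and Mxi1 with vorinostat at 10 µM (10.7%). The Mxi1 response in CD8 cells exceeded that in CD4 cells by 0.70, 0.86 and 1.03 (adjusted p = 0.0243, 0.00407 and 0.0016 with the block). The Mxd1 response to vorinostat at 10 µM was larger in CD8 cells by 1.47 (adjusted p = 0.207 without and 0.00809 with the block). The Myc response to romidepsin at 30 nM was less negative in CD8 cells by 1.57 (adjusted p = 1 without and 0.0237 with the block), and with vorinostat at 10 µM the Myc responses differed by 0.07 (95% interval -0.86 to 1.00 with the block). With the block 0 members passed at the 3 other doses, and 0, 1 and 2 of them had an unadjusted p under 0.05 at romidepsin 2 nM and vorinostat 0.5 and 2 µM, where 0.0101%, 0.0203% and 1.45% of all genes passed.

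Mnt, the antagonist found in most cell types and a main balance to MYC, was at 8.67 and 9.43 in the CD4 control. It was at 8.09 and 8.87 with romidepsin at 10 nM, 8.08 and 8.63 at 30 nM, and 8.17 and 8.73 with vorinostat at 10 µM. In CD8 cells it was at 8.38 and 9.64 in the control, 8.04 and 8.92 with romidepsin at 30 nM, and 8.04 and 8.69 with vorinostat at 10 µM. Each of these drugged arrays lay below its own replicate's control, and the groups overlapped when replicates were mixed. The changes ran from -0.53 to -0.69 in these 5 groups, with limma adjusted p between 0.00058 and 0.00556 with the block and at least 0.504 without. A second Mnt probe set was under the detection level in all arrays.

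Mxd4, an antagonist linked to quiescent and differentiating cells, was at 8.87 and 9.28 in the CD4 control and 8.22 and 9.48 in the CD8 control. With the block it fell in 4 CD4 groups, by 0.30 to 0.52, and in 4 CD8 groups, by 0.38 to 0.69. The largest change was in CD8 cells with vorinostat at 0.5 µM, at 7.41 and 8.91 (-0.81 and -0.57 in replicates 1 and 2), and with vorinostat at 10 µM the CD8 arrays were at 8.19 and 9.07. Its changes thus did not grow with the vorinostat dose. With the actin covariate beside the block these Mnt and Mxd4 changes were larger, and Mxd4 with vorinostat at 10 µM in CD4 cells no longer passed (-0.50, adjusted p = 0.0826). Without the block Mxd4 passed nowhere.

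Mxd3, an antagonist expressed in dividing cells, had group means from 7.87 to 8.17 and changed by -0.16 to 0.13 against control, with a 95% interval of 0.37 to each side without the block. It was the member with the smallest span and the smallest replicate gap, from -0.09 to 0.27. Mga had group means from 7.72 to 8.31 and changed by -0.39 to 0.02. In CD4 cells its replicates went opposite ways with vorinostat at 10 µM, by -0.63 and 0.39, while with romidepsin at 30 nM they went together, by -0.33 and -0.36. The interval for Mga reached 0.51 with the block, so changes under that size were not detectable here.

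Genes that MYC is known to activate were followed next, from a list of 40 of which 37 were tested. In CD8 cells with vorinostat at 10 µM, 17 of 37 fell, at a median change of -0.99, where 8.5% of all genes fell and their median was 0.00. With romidepsin at 30 nM 10 of 37 fell (median -0.84, with 2.93% of all genes falling). With vorinostat at 2 µM 6 fell and 1 rose (median -0.69, with 0.749% of all genes falling and 2.55% rising). Myc was at 10.82 and 11.70 there, against 10.42 and 11.56 in the control. Bcat1, which starts the breakdown of branched-chain amino acids, changed by -4.38 with vorinostat at 10 µM, -3.63 with romidepsin at 30 nM and -3.13 with vorinostat at 2 µM in CD8 cells. Nop56, a core protein of the particles that modify ribosomal RNA, fell by 2.09 and 1.66 with vorinostat at 10 µM and romidepsin at 30 nM. Srm, which makes spermidine, fell by 1.77 with vorinostat at 10 µM and 1.40 at 2 µM, and Polr1b, a subunit of RNA polymerase I, by 1.71 with romidepsin at 30 nM and 1.32 with vorinostat at 2 µM. The cyclin gene Ccnd2 rose by 1.18 with vorinostat at 2 µM.

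In CD4 cells fewer of these genes passed. With romidepsin at 30 nM 5 of 37 fell (median -0.40, with 7.91% of all genes falling), with vorinostat at 10 µM 3 fell (median -0.55, with 7.1%), with romidepsin at 10 nM 3 (median -0.46, with 2.32%) and with vorinostat at 2 µM 1 (median -0.40, with 0.334%). The difference between the cell types in these counts was not tested. Bcat1 changed by -4.16 with vorinostat at 10 µM and -3.91 with romidepsin at 30 nM. Slc7a5, the large neutral amino acid transporter of activated T cells, changed by -2.01 with vorinostat at 10 µM and -1.9 with romidepsin at 30 nM, and by -1.68 with vorinostat at 2 µM and -1.59 with romidepsin at 10 nM. Shmt2, the mitochondrial serine hydroxymethyltransferase, fell by 1.62 and 1.51 at the 10 µM and 30 nM doses. With the block 19 of 37 fell and 4 rose in CD4 cells with romidepsin at 30 nM, where 28.3% of all genes fell and 35.4% rose, and 29 fell and 1 rose in CD8 cells with vorinostat at 10 µM, where 32.4% fell and 31.6% rose. As given beside Myc, the T cell markers, the B cell markers and the actin difference also moved in these groups, and their part in the target changes was not tested. The CD8 response of Ccnd2 to romidepsin at 30 nM exceeded the CD4 response by 1.55 (limma adjusted p = 0.0295).

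**Figure D4:**
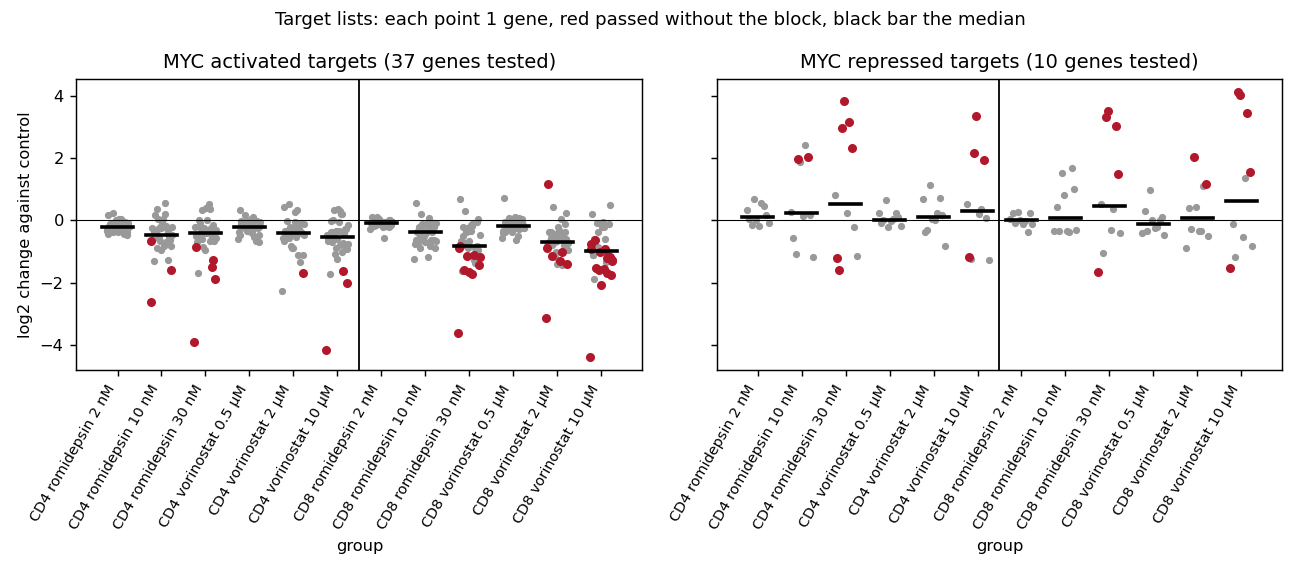
Log2 change against control (y axis) of 37 genes known as activated by MYC (left) and 10 known as repressed by it (right) in the 12 drug groups (x axis), 1 point a gene, red where it passed in limma without the block. The black bars, the medians, lie below 0 at the middle and top doses on the left, down to -0.99, and the red points on the right lie on both sides of 0.

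Before drug, 4 of the 37 activated targets were higher and 1 lower in CD8 than in CD4 control cells (2.42% and 3.8% of all genes), at a median of 0.43. Polr1b was higher by 1.30, Ppat, the first enzyme of purine synthesis, by 1.16 and Pus7 by 1.08, and Hk2, a hexokinase, was lower (log2 -0.98).

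Of 14 genes that MYC is known to repress, 10 passed the detection filter and were tested. Of these 10, 4 rose and 2 fell in CD4 cells with romidepsin at 30 nM (13.3% and 7.91% of all genes), 3 rose and 1 fell with vorinostat at 10 µM (10.9% and 7.1%), and 4 rose and 1 fell in CD8 cells at either top dose (7.89% and 2.93% with romidepsin at 30 nM, and 12.1% and 8.5% with vorinostat at 10 µM). With romidepsin at 10 nM in CD4 cells 2 rose (6.32% of all genes). Of the 4 that rose in CD4 cells with romidepsin at 30 nM, 3 (Cdkn2b, Clu and Cdkn1c) were under the detection level in the control. Such genes pass the filter through the groups where they are high, so these counts are not a measure of the list. The cyclin-dependent kinase inhibitor genes did not move together. Cdkn2b rose from under the detection level, at least 5.21-fold in CD4 cells with romidepsin at 30 nM and at least 5.07-fold in CD8 cells with vorinostat at 10 µM, and Cdkn1c rose at least 6.88-fold and at least 7.82-fold. Cdkn1a and Cdkn1b, which encode p21 and p27, fell in CD4 cells with romidepsin at 30 nM by 1.21 and 1.59. The stress gene Gadd45a rose by 3.44 in CD8 cells with vorinostat at 10 µM and by 2.34 in CD4 cells with romidepsin at 30 nM, and Bcl6, a transcriptional repressor that directs T cell and B cell fates, fell in CD8 cells by 1.53 and 1.65 at the vorinostat and romidepsin top doses.

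Of 16 cofactors that MYC uses, 3 fell in CD4 cells with romidepsin at 30 nM and 3 in CD8 cells with vorinostat at 10 µM, where 7.91% and 8.5% of all genes fell. The acetyltransferase gene Crebbp fell by 1.48 and 1.35 in these groups, and Trrap, the scaffold of acetyltransferase complexes, by 0.97 and 0.78. Ep300, the paralog of Crebbp, fell by 0.99 in CD4 cells with romidepsin at 30 nM, and Ruvbl1, a helicase subunit of chromatin complexes, by 1.82 in CD8 cells with vorinostat at 10 µM. With the block 7 fell and 3 rose in the first of these groups, and 11 fell and 1 rose in the second, where 28.3% and 32.4% of all genes fell. Medians of the list were -0.32 and -0.63, against 0.07 and 0.00 for all genes.

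Of 13 genes that act on the stability of MYC protein, 2 rose in CD4 cells with romidepsin at 30 nM, and 3 rose and 1 fell in CD8 cells with vorinostat at 10 µM. Of all genes 13.3% rose in the first group, and 12.1% rose and 8.5% fell in the second, so these counts are near the background. Fbxl16, an F-box gene reported to stabilize MYC, rose by 2.23 and 1.87 in these groups and by 2.42 in CD8 cells with romidepsin at 10 nM, where 1.11% of all genes rose, and Usp37, a deubiquitinase, by 1.00 and 0.90. Fbxw7, the F-box protein that targets MYC for degradation, rose by 1.6 in CD8 cells with vorinostat at 10 µM and by 1.29 with romidepsin at 30 nM. Set, an inhibitor of the phosphatase PP2A, fell there by 0.95 and 0.83. Genes that work in opposite directions on MYC thus rose side by side, and MYC protein was not measured.

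Of 15 tested subunits of the SIN3 corepressor, the partner of the MXD and MNT proteins, Hdac1 rose in 5 groups. It rose by 0.82 and 0.90 in CD4 cells with romidepsin at 10 and 30 nM and by 1.06 with vorinostat at 10 µM, and by 0.81 and 0.79 in CD8 cells at the top doses of romidepsin and vorinostat. Of all genes 6.32%, 13.3% and 10.9% rose in these CD4 groups, and 7.89% and 12.1% in these CD8 groups. Arid4b, which belongs to the SIN3 complex, rose by 0.84 in CD4 cells with romidepsin at 30 nM, and with vorinostat at 10 µM by 0.99 in CD4 and 1.10 in CD8 cells. Sinhcaf, another subunit, fell by 1.26 in CD8 cells with vorinostat at 10 µM, where 8.5% of all genes fell. Ing1, a reader of methylated histone H3, rose there by 0.81. Of 11 tested partners of MGA in PRC1.6, 3 rose in CD4 cells with romidepsin at 30 nM (13.3% of all genes), Hdac1 (counted above), the Polycomb ring-finger gene Pcgf6 (0.70) and the ubiquitin ligase gene Ring1 (0.75). Of 12 germline genes that this complex is known to silence, 8 stayed under the detection filter and 4 were tested. Tdrkh, a piRNA pathway gene, rose in 6 groups, up to 2.02 in CD8 cells with romidepsin at 30 nM, and Ddx4, the VASA helicase of germ cells, rose at least 1.17-fold in CD4 cells with romidepsin at 30 nM. Stag3, a cohesin gene of meiosis, rose at least 2.64-fold in CD8 cells with vorinostat at 10 µM (limma adjusted p = 0.0484), and Slc25a31 passed in none of the comparisons without the block. Since a gene that is low in control passes the filter only through the groups where it is high, these counts are not a measure of the list.

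The MLX branch of the network, in which MLX pairs with MondoA or ChREBP in place of MAX, was followed through 3 known targets, 2 of which rose in CD4 cells with romidepsin at 30 nM and vorinostat at 10 µM and in CD8 cells with vorinostat at 10 µM (13.3%, 10.9% and 12.1% of all genes). Txnip, which restrains glucose uptake, rose by 3.25 and 3.06 in CD4 cells and Arrdc4, its arrestin relative, by 2.26 and 2.64 with romidepsin at 30 nM and vorinostat at 10 µM. In CD8 cells they rose by 2.68 and 2.84 with vorinostat at 10 µM. With romidepsin at 30 nM in CD8 cells Arrdc4 rose by 1.74 (7.89% of all genes), and Txnip changed by 2.10 and passed with the block alone. In CD4 cells with romidepsin at 10 nM Txnip and Arrdc4 also rose, by 2.56 and 1.97 (6.32% of all genes). Klf10, the remaining target, changed by 0.38 and 0.05 in CD4 cells with romidepsin at 30 nM and vorinostat at 10 µM. In CD8 cells with vorinostat at 10 µM it changed by 1.17 (limma adjusted p = 0.0764 without and 0.00202 with the block). Mlxip, the gene of MondoA, changed by 0.48 and 0.45 in CD4 cells with romidepsin at 30 nM and vorinostat at 10 µM. It passed there with the block alone (limma adjusted p = 0.285 and 0.349 without and 0.0285 and 0.0413 with the block). With the block alone it also passed in CD4 cells at the middle doses. In CD8 cells it did so with vorinostat at 10 µM (0.46, limma adjusted p = 0.0357) and 2 µM (0.88, limma adjusted p = 0.00174). Mlxipl, the gene of ChREBP, rose at least 1.73-fold in CD8 cells with vorinostat at 10 µM. Without the block Mycn and Mlx passed in none of the drug comparisons. With it Mlx changed by -0.84 in CD8 cells with vorinostat at 10 µM (limma adjusted p = 0.00237), by -0.68 at 2 µM (adjusted p = 0.0182) and by -0.82 in CD4 cells with vorinostat at 2 µM (adjusted p = 0.00947). Mycn was over the detection level in only 2 of 28 arrays, so no change is given for it.

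The genes whose group means followed those of a member most closely were named by Pearson's r over the 14 groups, for the 3 members that spanned at least 1 log2 unit. For Myc these were Gimap4 (r = 0.986), Bcor (0.985) and Il21r (0.983), for Mxd1 Mvb12a (0.987), Tox2 (0.982) and Hadh (0.981), and for Mxi1 P4hb (0.975), Amz2 (0.969) and Arih2 (0.966). Within replicate 1 and replicate 2 alone these r values lay between 0.892 and 0.975. The groups share control arrays, doses and cell types, and the best of 9874 genes are close by selection, so these values are a description.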

How the data were processed

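The members and gene lists were chosen with earlier results of these data known. Total RNA was measured on Affymetrix mouse arrays, 14 of CD4 and 14 of CD8 T cells. The authors made the deposited values with GCRMA, per the submitters' processing notes, and its version and settings are not given in the sources used here. The deposited values are read here as log2 signals, the scale that GCRMA gives, since no base of the logarithm is stated in the sources used here.

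Of 45101 probe sets 34945 name 1 gene, 932 several and 9211 none (not used), and controls of the array maker were left out. A gene counted as detected 2 log2 units over the mode of the whole table (2.27), and the 9874 genes detected in 2 or more arrays entered the tests. Limma 3.58.1 (R 4.3.3; lmFit, eBayes) fitted 14 group means to 28 arrays, with Benjamini-Hochberg adjustment within each of 19 contrasts. The main fit had no block, and an alternative had the replicate number as a block within each cell type. The numbers pair the arrays: deviations of same-numbered arrays from their group means correlated at 0.762 to 0.940 in 21 CD4 pairs and 0.768 to 0.958 in 21 CD8 pairs. In 49 pairs of a CD4 with a CD8 group they correlated at 0.722 to 0.858. The number of arrays limits the precision, and without the block so does the shift between replicates. Both fits were run on simulated arrays with the spread and replicate shift of the blocked fit. Such arrays cannot show which fit suits the real ones. Other alternatives were quantile normalization, equal medians, filters, other probe sets, an expression trend and leaving out each array, and the actin covariate and the settings combined with the block were added after the data were seen. Named genes are all 8 members, up to 3 called genes each way per list and contrast, and the 3 genes most like a member. A bound for a gene under detection in control sets the control at the detection level.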

Additional observations from a re-analysis of the deposited data

Results flagged for a closer look

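Differences between the responses of CD8 and CD4 cells passed for 5 pairs of member and dose in limma with the replicate block and for none of these pairs without it. Mxi1 responded more positively in CD8 cells by 0.70 with romidepsin at 10 nM (0.86 and 0.53 in replicates 1 and 2), by 0.86 at 30 nM (1.04 and 0.68) and by 1.03 with vorinostat at 10 µM (1.10 and 0.96). Its second probe set gave 0.07, 0.34 and 0.88 for these, and none passed with either fit. Myc responded less negatively in CD8 cells by 1.57 with romidepsin at 30 nM (1.42 and 1.73). Mxd1 responded more positively in CD8 cells by 1.47 with vorinostat at 10 µM (1.87 and 1.07), and its second probe set gave 2.01 and passed with the block. The cell types share no array, but their replicate shifts were correlated (0.722 to 0.858 over 49 pairs of groups). Each response contains the control of its own cell type, in which Mxd1 and Mxi1 were already lower in CD8 cells.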

How the results depend on the processing

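The calls depend mainly on the replicate block, and 2 arrays a group limit what either fit detects. Members called went with the replicate block from 1 to 5, 1 to 5, 0 to 1 and 1 to 4 in CD4 cells (romidepsin 10 and 30 nM, vorinostat 2 and 10 µM), from 0 to 2, 1 to 5, 0 to 1, 1 to 2 and 2 to 4 in CD8 cells (romidepsin 10 and 30 nM, vorinostat 0.5, 2 and 10 µM), and from 0 to 1, 2 and 2 in the response differences (romidepsin 10 and 30 nM, vorinostat 10 µM). Settings added to the block after the data were seen moved them so: the actin covariate gave 5, 5, 1 and 3 in CD4 cells, 3, 5, 1, 4 and 3 in CD8 cells and 1, 2, 1 and 2 in the responses including vorinostat 2 µM; quantile normalization 5, 5, 2 and 4, then 1, 6, 1, 4 and 4, then 1, 3, 1 and 2; equal medians 5, 5, 1 and 3, then 1, 5, 1, 4 and 4, then 1, 2 and 2. Without the block, equal medians called 2 in CD4 cells with romidepsin at 30 nM (Myc passed too), and quantile normalization 1 in CD8 cells with romidepsin at 10 nM. Both called 1 in CD8 cells with vorinostat at 10 µM and 1 between controls, where Mxi1 was lost, and dropping the filter also left 1 at vorinostat 10 µM. The mean of all probe sets left 0 members in CD4 cells at romidepsin 10 and 30 nM and vorinostat 10 µM, 1 in CD8 cells with vorinostat at 10 µM and 1 between controls. It averages in probe sets under the detection level. The second probe set turned Mxd1 in CD4 cells with romidepsin at 10 nM to -0.14 and Mxi1 with romidepsin at 30 nM to 0.09, with and without the block.

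Leaving out 1 array sets arrays of 1 replicate against both, without a block. Members called then were 0 in CD4 cells with romidepsin at 10 nM, 0 to 1 in CD8 cells with vorinostat at 2 µM, 1 at 10 µM and 1 to 2 between controls. Mxd1 ran from 1.13 to 1.22 in the first of these. Signs turned for Myc in CD4 cells with romidepsin at 10 nM (-2.27 to 0.06) and CD8 cells at 30 nM (-2.0 to 0.06), for Mnt there (-1.16 to 0.10), and for Mxd4 in CD8 cells with romidepsin at 10 nM (-1.01 to 0.26) and 30 nM (-1.10 to 0.17) and vorinostat at 0.5 µM (-1.44 to 0.06) and 2 µM (-1.07 to 0.20). Apart from the split by replicate the cause was not tested. A filter over all arrays and an expression trend changed no member count. Of 108 list counts, 61 moved by over 1.5 times with the block, 34 with quantile normalization, 30 with equal medians, 17 without the filter, 11 with the mean of probe sets, 10 with the filter over all arrays and 8 with the trend.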
